A study of Mus musculus with 5 samples.

Results

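Transcript levels of 10 genes of the epithelial-mesenchymal transition (EMT) were followed in mouse pancreatic cancer cells sorted by autophagy flux. The genes were Vim, Fn1 and Cdh2, which mark mesenchymal cells, the transcription factor genes Zeb1, Zeb2, Snai1, Snai2, Twist1 and Prrx1, and Grhl2, an epithelial factor that opposes them. They were taken as a list of symbols, with earlier results of these data known, and each matched 1 of the 52459 rows of the deposited table. The tested cells were autophagy-high (AThi, 2 libraries) and were set against autophagy-low cells (ATlo, 3 libraries). Both populations came from organoids of the HY15549 line on a C57BL/6 background, and both carried the GFP-LC3-RFP reporter, whose ratio of green to red signal was the basis of the sort. The organoids were grown in Matrigel with DMEM and 10% serum and were dissociated to single cells before sorting. All libraries therefore describe 1 tumour line carrying a reporter, and its tumour genotype was not given in the sources used here.

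In EMT, epithelial cells lose junctions and polarity and take on features of migratory mesenchymal cells. SNAI and ZEB zinc finger proteins bind E-box elements in epithelial genes such as Cdh1 and repress them, while TWIST1 and PRRX1, a basic helix-loop-helix and a homeobox protein, are further inducers. Vimentin filaments, fibronectin matrix and N-cadherin are the usual readouts of the mesenchymal side, and GRHL2 activates Cdh1 and is held in mutual repression with ZEB1. Carcinomas often hold intermediate states in which both sides are transcribed, and in pancreatic cancer EMT factors are linked to dissemination.

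Promoter windows of 300 bases (250 before and 50 from the annotated start) were taken from RefSeq on GRCm38.p6 and matched 5 of the 10 genes, namely Vim, Snai1, Twist1, Zeb2 and Prrx1. The windows of Vim and Snai1 are shown because these genes lie far apart in level, Vim being the most abundant of the 10 genes and Snai1 being near the limit of detection. Capitals mark the E-box CAGGTG, the CCAAT box CCAAT and the TATA box TATAAA on either strand, and no matches overlapped.
Vim, chr2:13574061-13574360, plus strand: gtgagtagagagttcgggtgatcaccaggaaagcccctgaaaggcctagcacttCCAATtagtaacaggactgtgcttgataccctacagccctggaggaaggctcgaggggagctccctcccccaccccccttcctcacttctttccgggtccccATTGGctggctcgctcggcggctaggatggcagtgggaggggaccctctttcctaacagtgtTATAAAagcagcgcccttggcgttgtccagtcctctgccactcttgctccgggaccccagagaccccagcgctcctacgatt
Snai1, chr2:167537945-167538244, plus strand: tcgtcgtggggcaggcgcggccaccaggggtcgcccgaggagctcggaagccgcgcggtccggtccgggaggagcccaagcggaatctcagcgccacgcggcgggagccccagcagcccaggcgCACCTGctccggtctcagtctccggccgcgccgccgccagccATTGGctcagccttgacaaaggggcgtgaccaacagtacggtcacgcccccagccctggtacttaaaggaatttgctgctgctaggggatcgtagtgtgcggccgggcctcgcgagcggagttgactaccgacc
The Vim window held a TATA box beginning 32 bases upstream of the start and CCAAT boxes at 94 and 196 bases, and the letters of the E-box were not in it. The Snai1 window held 1 E-box at 126 bases and 1 CCAAT box at 84 bases upstream, without the letters of the TATA box. Among 32851 promoters of the same length, 20.2% held the E-box, 37.4% the CCAAT box and 13.6% the TATA box. The windows held 11 CG dinucleotides in Vim and 34 in Snai1, against a median of 7.0 over these promoters. These matches describe the letters alone.

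Levels are in FPKM, that is, fragments divided by transcript length and by library depth, so that they can be compared between genes. The low values implied depths of 27.6 to 44.9 M reads per library, at which 3 reads of a transcript as long as Snai1 (1621 exonic nucleotides in GENCODE M21) correspond to between 0.0412 and 0.0671 FPKM. A mean of 1 FPKM or more over the 5 libraries was required for the test, limma on log2(FPKM + 0.5). A Benjamini-Hochberg adjusted p under 0.05 over all 11397 tested genes was the threshold. Log2 fold changes are AThi minus ATlo. Of the tested genes 51.6% passed, 22.2% higher and 29.4% lower in AThi, so a single call is common in this comparison. The share of calls that were higher was 43.0%, and 57.6% with upper-quartile scaling. The label of pancreatic carcinoma cells fits the keratins, with Krt19 at 1395 to 1842 FPKM, while Epcam, named after its values were seen, was at 1.51 to 3.57 FPKM. Fibroblast and mural markers summed to 0.23 and 0.31 FPKM in AThi and to between 0.17 and 0.19 FPKM in ATlo over 12 genes, and Col1a2, Dcn, Lum and Postn were listed at 0 in every library. Of 8 endothelial markers none passed the filter, 3 were listed at 0, and the sums were 0.06 and 0.11 FPKM in AThi and 0.04 to 0.10 FPKM in ATlo. Of 8 immune markers 2 were listed at 0, and without Cd68 the others summed to 0.11 and 0.08 FPKM in AThi and to 0.06 to 0.11 FPKM in ATlo. Cd68, a lysosomal membrane protein gene used as a macrophage marker, was at 8.68 and 14.7 FPKM in AThi against 4.38, 4.31 and 4.55 FPKM in ATlo. Of 9 ductal and carcinoma markers 2 rose, 1 fell and 6 were not called. Mitochondrially encoded genes took 10.0% and 7.51% of the summed FPKM in AThi, against 5.98%, 5.61% and 5.53% in ATlo, and their part in the results was not tested.

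Vim and Cdh2 were lower and Fn1 was higher in AThi cells, each with no overlap between the groups, so the mesenchymal markers did not move in one direction. Zeb1 was slightly higher in AThi. Snai2 passed the filter on low values and missed the threshold. The other 5 genes were below the filter, among them Grhl2, whose level in AThi was about 2.15 times that in ATlo. In all, 2 of the 5 tested genes were higher, 2 were lower and 1 was not called, against 22.2% higher and 29.4% lower of all tested genes. The median log2 fold change of the 5 was -0.30, against -0.03 over all tested genes. That median is the value of Snai2, the gene not called, and does not show a shift of the set. Library values did not overlap in 4 of the 5, where this held for 70.3% of all tested genes. AThi was above ATlo in 2 of them and below in 2, against 31.9% and 38.4% of all tested genes. In sorted bulk samples, fewer cells with a transcript and less of it per cell cannot be told apart.

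**Figure D1:**
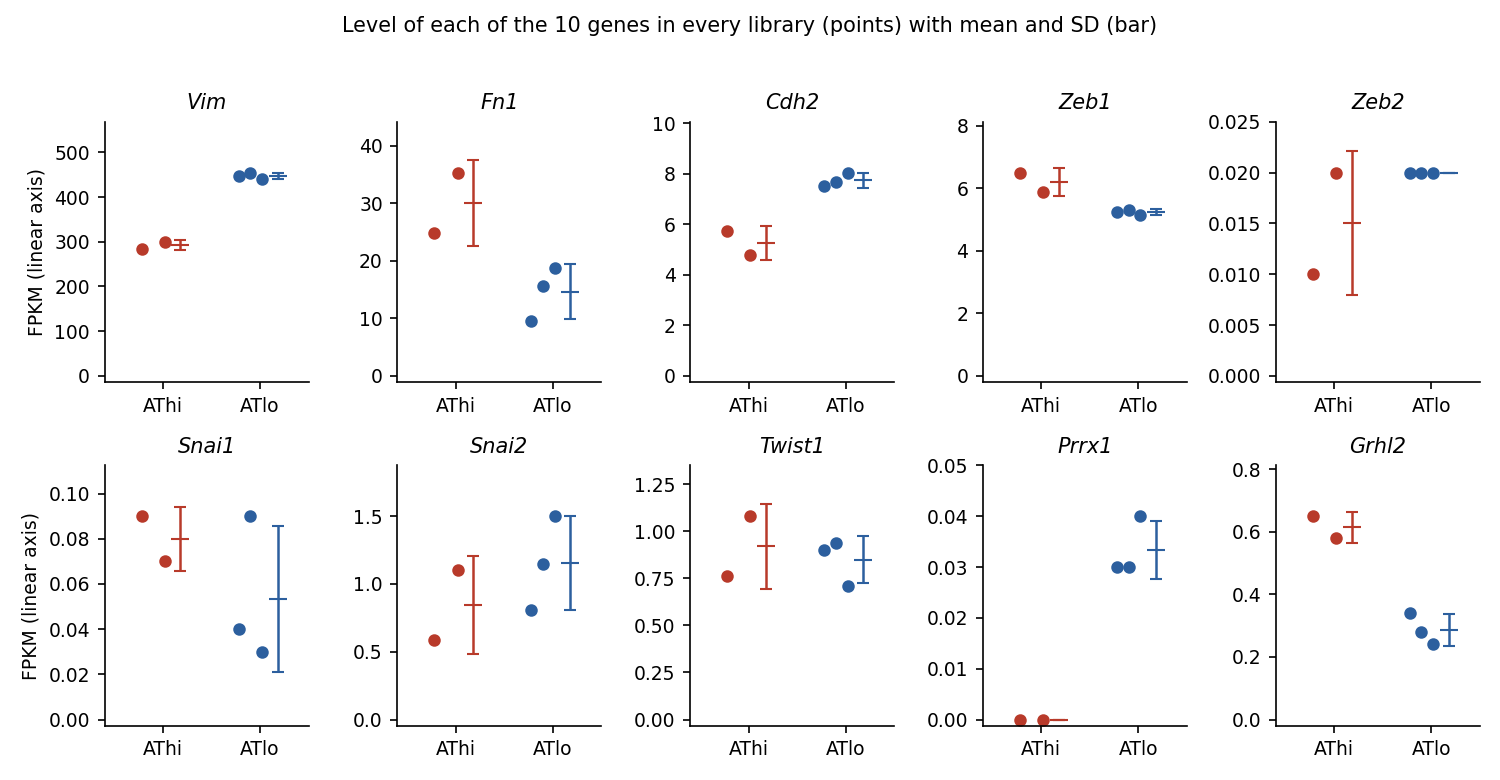
FPKM on linear axes that start at 0 and differ between panels, for the 10 genes in AThi (red, 2 libraries) and ATlo (blue, 3 libraries), with the mean and SD beside the points. Vim lies at 284 and 300 FPKM in AThi, below all ATlo libraries, and Fn1 at 24.8 and 35.4 FPKM in AThi, above them.

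Vim encodes vimentin, the intermediate filament protein of mesenchymal cells. It stood at 284 and 300 FPKM in AThi, against 446, 455 and 440 FPKM in ATlo. Both AThi libraries were below all ATlo libraries, and the gap between the groups was far wider than the spread within either. The means were 292 ± 11.1 FPKM in AThi (n = 2, SD) and 447 ± 7.33 FPKM in ATlo (n = 3, SD). The log2 fold change was -0.61 ± 0.07 (SE), with a limma adjusted p of 0.00067. Vim ranked between 50 and 98 by FPKM among all genes of a library, which places a mesenchymal filament gene among the most abundant transcripts of keratin-positive cells. It reached 9.09% and 7.88% of the summed FPKM of Krt8, Krt18 and Krt19, the filament genes of simple epithelium, in AThi, against 11.2%, 12.1% and 13.1% in ATlo. The exact two-sided permutation p of this share was 0.2, the smallest that 2 against 3 libraries allow. Krt8, Krt18 and Krt19 did not pass the test, with limma adjusted p-values of 0.142, 0.558 and 0.365. The log2 fold change of Krt8 was -0.29, and -0.51 without AThi replicate 2. With the replicate number as a block, a fit with 1 residual degree of freedom, Krt8 passed as lower (-0.38, limma adjusted p 0.0157).

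Fn1 encodes fibronectin, a matrix glycoprotein that mesenchymal cells lay down and migrate on. It was at 24.8 and 35.4 FPKM in AThi, against 9.51, 15.6 and 18.8 FPKM in ATlo. The AThi libraries were all above the ATlo libraries, but both groups were spread widely. Means were 30.1 ± 7.46 FPKM in AThi (n = 2, SD) and 14.7 ± 4.74 FPKM in ATlo (n = 3, SD). The log2 fold change was 1.04 ± 0.28 (SE), with a limma adjusted p of 0.0179, and 260 of the 11397 tested genes had a log2 fold change at least as high. Without AThi replicate 2 the log2 fold change was 0.79 and the adjusted p 0.126, so the call rests on that library. Immediate-early genes, which respond to growth signals and to the handling of cells, differed between AThi and ATlo too. Of 16 such genes 14 rose, where 22.2% of all tested genes did. The 16 genes summed to 4200 and 6569 FPKM in AThi, against 1938, 2370 and 1502 FPKM in ATlo. AThi replicate 2 was highest in both this sum and Fn1. Among the ATlo libraries the orders differed, as replicate 3 was highest in Fn1 and lowest in the sum. The part of that programme in the Fn1 result was not tested.

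Cdh2 encodes N-cadherin, the adhesion molecule that replaces E-cadherin in the cadherin switch of EMT. Its level was 5.75 and 4.80 FPKM in AThi, against 7.5, 7.66 and 8.05 FPKM in ATlo. Both AThi libraries were below the ATlo libraries. The means of 5.28 ± 0.67 FPKM in AThi (n = 2, SD) and 7.74 ± 0.28 FPKM in ATlo (n = 3, SD) gave a log2 fold change of -0.52 ± 0.09 (SE) and a limma adjusted p of 0.00316. Its counterpart Cdh1, the E-cadherin gene, was at 351 and 316 FPKM in AThi and at 392, 348 and 342 FPKM in ATlo, with a limma adjusted p of 0.347. N-cadherin transcript was thus a small share of the E-cadherin level in every library, at 1.64% and 1.52% in AThi against 1.91%, 2.20% and 2.35% in ATlo. The exact two-sided permutation p of that share was 0.2, the smallest possible here.

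Vim and Cdh2 passed with any 1 library left out and under every other setting tried. Transcripts of cell division fell with them. Their 12 genes summed to 28.4 and 31.2 FPKM in AThi against 308, 360 and 420 FPKM in ATlo. All 12 fell, where 29.4% of all tested genes did. The part of cell division in the results of the 10 genes was not tested.

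**Figure D2:**
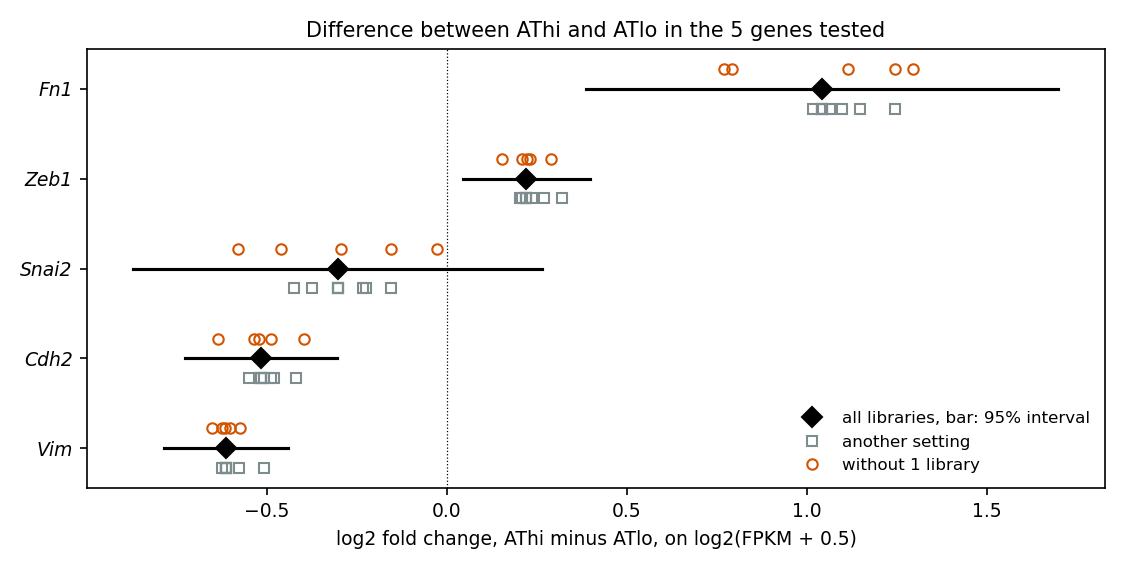
Log2 fold change of the 5 tested genes, AThi minus ATlo, from all 5 libraries (diamond, with the 95% interval as a bar), from fits without 1 library (orange circles) and from other settings (grey squares). Every value of Vim and Cdh2 lies below 0 and every value of Fn1 and Zeb1 above 0, while the interval of Snai2 reaches from -0.87 to 0.27.

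Zeb1 and Zeb2 encode paralogous repressors of Cdh1. Zeb1 was at 6.51 and 5.88 FPKM in AThi, against 5.26, 5.32 and 5.14 FPKM in ATlo. The groups did not overlap, and the AThi libraries lay further apart than the ATlo libraries did. The means were 6.20 ± 0.45 FPKM in AThi (n = 2, SD) and 5.24 ± 0.09 FPKM in ATlo (n = 3, SD). The log2 fold change of 0.22 ± 0.07 (SE) had a limma adjusted p of 0.0427, just inside the threshold. The call was lost without AThi replicate 1 (adjusted p 0.215) and without ATlo replicate 1, 2 or 3 (adjusted p 0.0704, 0.101 and 0.1004), so it is a weak one. Zeb2 was listed at 0.01 and 0.02 FPKM in AThi and at 0.02 FPKM in each ATlo library, near the rounding of the table. Of the ZEB pair, then, these cells transcribed Zeb1.

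The order of Zeb1 and Cdh2 differed between the groups. Zeb1 stood at 1.13 and 1.22 times the Cdh2 level in AThi, against 0.70, 0.69 and 0.64 times in ATlo, in FPKM. The levels of the pair lay close together in AThi, where the lower Zeb1 value was just above the higher Cdh2 value, and were apart in ATlo. The exact two-sided permutation p of the ratio was 0.2, the smallest possible. Zeb1 was higher and Cdh2 lower in AThi, both without overlap, so the ratio had to separate the groups. Its test adds nothing to the results of the single genes, of which the Zeb1 call was weak.

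Snai1 and Snai2 encode SNAIL and SLUG. Snai1 was at 0.09 and 0.07 FPKM in AThi, against 0.04, 0.09 and 0.03 FPKM in ATlo, which corresponded to 4 and 5 reads in AThi and to 3, 5 and 2 reads in ATlo. The groups overlapped. Summed over the libraries of a group, 9 reads in AThi gave 0.0766 FPKM (95% exact Poisson interval 0.035 to 0.145) and 10 reads in ATlo gave 0.0526 FPKM (0.0252 to 0.0967), where the intervals cover counting error only. A difference in Snai1 was not detectable at this depth.

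Snai2 was at 0.59 and 1.1 FPKM in AThi, against 0.81, 1.15 and 1.5 FPKM in ATlo. The groups overlapped, and both groups were spread widely. With means of 0.85 ± 0.36 FPKM in AThi (n = 2, SD) and 1.15 ± 0.35 FPKM in ATlo (n = 3, SD), the log2 fold change was -0.30 ± 0.24 (SE) with a 95% interval of -0.87 to 0.27 and a limma adjusted p of 0.325. Its mean of 1.03 FPKM over all libraries was just inside the filter, and Twist1, at 0.88 FPKM, was just outside.

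Twist1 encodes a basic helix-loop-helix inducer of EMT. It was at 0.76 and 1.08 FPKM in AThi, against 0.90, 0.94 and 0.71 FPKM in ATlo, so the AThi libraries enclosed most of the ATlo range. With the filter lowered to a mean of 0.2 FPKM its log2 fold change was 0.07 and its limma adjusted p 0.744. Prrx1 encodes a homeobox factor of mesenchymal progenitors. It was listed at 0 in both AThi libraries and at 0.03, 0.03 and 0.04 FPKM in ATlo, where these values correspond to about 14, 12 and 17 reads. A level of 3 reads would have been 0.00982 and 0.00604 FPKM in the AThi libraries. By the limits of rounding, Prrx1 had at most 1.5 and 2.5 reads in AThi and at least 11.6, 10.0 and 15.2 reads in ATlo. With no filter on low values Prrx1 missed the threshold, at a log2 fold change of -0.093 and a limma adjusted p of 0.0837. The pseudocount added before the log shrinks the change of so low a gene, so this fit cannot decide whether Prrx1 differed.

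Grhl2 encodes a grainyhead factor that sustains epithelial gene expression. It was at 0.65 and 0.58 FPKM in AThi, against 0.34, 0.28 and 0.24 FPKM in ATlo, or about 155 and 224 reads in AThi against 123, 87 and 81 reads in ATlo. Both AThi libraries were above all ATlo libraries, and groups that did not overlap, in either direction, were seen in 47.6% of genes with a mean between 0.2 and 1 FPKM. The means were 0.62 ± 0.05 FPKM in AThi (n = 2, SD) and 0.29 ± 0.05 FPKM in ATlo (n = 3, SD). Grhl2 was below the filter. With the filter lowered to a mean of 0.2 FPKM, where 44.0% of 14385 genes passed, its log2 fold change was 0.50, a scale on which the pseudocount shrinks the change of so low a gene, and its limma adjusted p was 0.0243.

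By level, then, Vim was followed by Fn1, by Cdh2 and Zeb1, by Snai2 and Twist1, by Grhl2, by Snai1, and by Zeb2 and Prrx1 at the limit of the table. Snai2 and Twist1 did not differ beyond their spread in either group.

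The paralogues of several of the factors were measured as well, and were named for this comparison after their values were seen, except Snai3 and Prrx2. Snai3 was at 0.45 and 0.70 FPKM in AThi, against 1.35, 2.46 and 2.67 FPKM in ATlo, and fell, with a log2 fold change of -1.28 ± 0.25 (SE) and a limma adjusted p of 0.00536. Prrx2, at 3.00 and 1.87 FPKM in AThi against 5.38, 4.75 and 4.57 FPKM in ATlo, fell as well, by -0.90 ± 0.17 (SE) with a limma adjusted p of 0.00409. Prrx2 was the expressed gene of its pair. Twist2, below the filter, was at 0.21 and 0.45 FPKM in AThi and at 0.90, 1.01 and 0.60 FPKM in ATlo. Grhl1, also below the filter, was at 0.18 and 0.25 FPKM in AThi against 0.54, 0.63 and 0.65 FPKM in ATlo, the direction opposite to that of Grhl2. The groups overlapped in Grhl3, below the filter too, at 0.13 and 0.22 FPKM in AThi against 0.32, 0.14 and 0.32 FPKM in ATlo. Both AThi libraries were below all ATlo libraries in 38.4% of all tested genes. Among genes with a mean between 0.2 and 1 FPKM, 47.6% did not overlap, in either direction. Differences between paralogues were not tested.

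**Figure D3:**
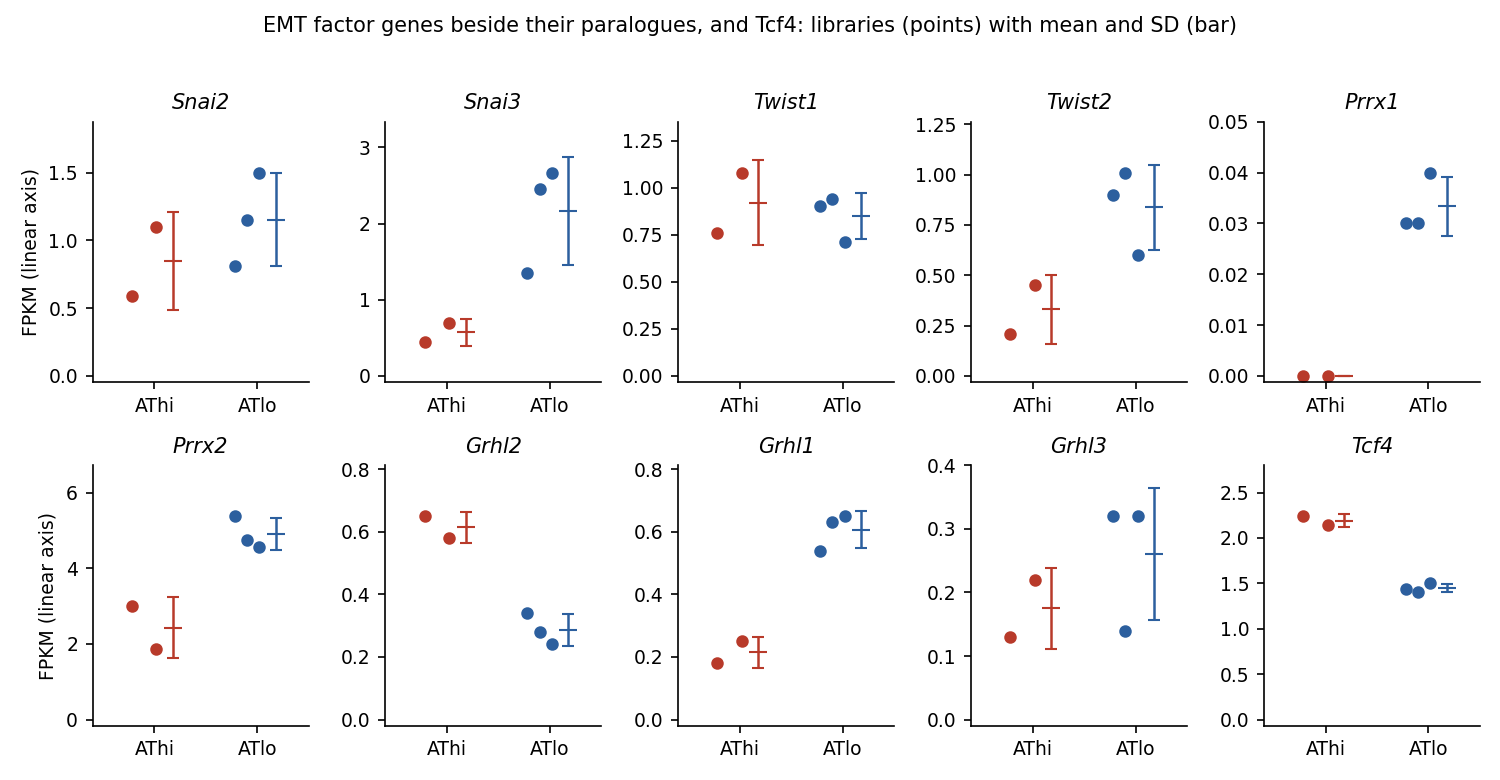
FPKM on linear axes that start at 0 and differ between panels, for Snai2, Twist1, Prrx1 and Grhl2 beside their paralogues, and for Tcf4, in AThi (red, 2 libraries) and ATlo (blue, 3 libraries), with the mean and SD. Snai3, Twist2, Prrx2 and Grhl1 are lower in both AThi libraries than in any ATlo library, and Grhl2 is higher. The groups overlap in Grhl3.

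Among 16 other EMT transcription factor genes, 9 passed the filter. Of these, 3 rose, 5 fell and 1 was not called, against 22.2% higher and 29.4% lower of all tested genes. The median log2 fold change of the 9 was -0.44, against -0.03 over all tested genes. Hmga2, a chromatin protein gene that acts upstream of Snai1 and Twist1, was at 3.63 and 2.55 FPKM in AThi against 8.57, 10.6 and 12.1 FPKM in ATlo, a log2 fold change of -1.61 ± 0.17 (SE). The AP-1 subunit gene Fosl1 changed by -0.74 ± 0.09 (SE). In the other direction, Sox4 was at 40.3 and 38.9 FPKM in AThi against 21.0, 24.8 and 27.7 FPKM in ATlo, a log2 fold change of 0.69 ± 0.11 (SE). Foxq1, a forkhead gene, rose by 0.51 ± 0.14 (SE). Its call was lost without AThi replicate 2 (adjusted p 0.134) and without ATlo replicate 1 (adjusted p 0.0522). Tcf4, named after its values were seen, was the third that rose, and its call was lost without AThi replicate 1 (adjusted p 0.0537).

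Of 30 other mesenchymal genes, 16 passed the filter, of which 4 rose, 6 fell and 6 were not called. The median log2 fold change was -0.09. These shares lie near the 22.2% higher and 29.4% lower of all tested genes, and without AThi replicate 1 the count that rose was 2. Tgm2, a transglutaminase gene whose product crosslinks matrix and binds fibronectin, was at 83.4 and 74.9 FPKM in AThi against 42.2, 32.7 and 31.6 FPKM in ATlo, and rose by 1.16 ± 0.13 (SE). S100a4, also called fibroblast-specific protein, was at 33.3 and 29.2 FPKM in AThi against 85.9, 69.2 and 62.9 FPKM in ATlo, and changed by -1.20 ± 0.13 (SE). Moesin, which links actin to the membrane and is encoded by Msn, fell to 25.7 ± 2.14 FPKM in AThi (n = 2, SD), against 54.4 ± 5.11 FPKM in ATlo (n = 3, SD). Plaur, the most abundant of the list, did not pass, with a limma adjusted p of 0.639. The remaining 14 genes were below the filter, and Col1a2, Col5a2, Mmp2 and Lox were listed at 0 in every library.

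Of 12 epithelial transcription and splicing factor genes, 7 passed the filter. Of these, 4 rose, 2 fell and 1 was not called, against 22.2% higher and 29.4% lower of all tested genes. With each library rescaled to the same summed FPKM, and with upper-quartile scaling, 5 rose, as Foxa2 was then called. The count that rose was 2 without AThi replicate 1, without AThi replicate 2 and with no filter on low values, where the calls of Klf5 and Rbm47 were lost. Elf3, an epithelial ETS factor gene, was at 347 and 477 FPKM in AThi against 218, 240 and 178 FPKM in ATlo, a log2 fold change of 0.95 ± 0.17 (SE), and the related Ehf rose by 0.73 ± 0.07 (SE). Foxa1 and the splicing regulator gene Esrp2 changed by -0.66 ± 0.07 and -0.46 ± 0.06 (SE). Among 22 epithelial genes that EMT factors repress, 15 passed the filter, of which 1 rose, 2 fell and 12 were not called, where 51.6% of all tested genes passed. Lsr, of tricellular junctions, fell by 0.41 on the log2 scale. Cldn7 and Tjp3, also of tight junctions, changed by -0.23 and 0.23. Both calls were lost without either AThi library or without ATlo replicate 2 (adjusted p 0.0880 to 0.140), that of Cldn7 also without ATlo replicate 1 (0.0895) and that of Tjp3 without ATlo replicate 3 (0.0900).

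**Figure D4:**
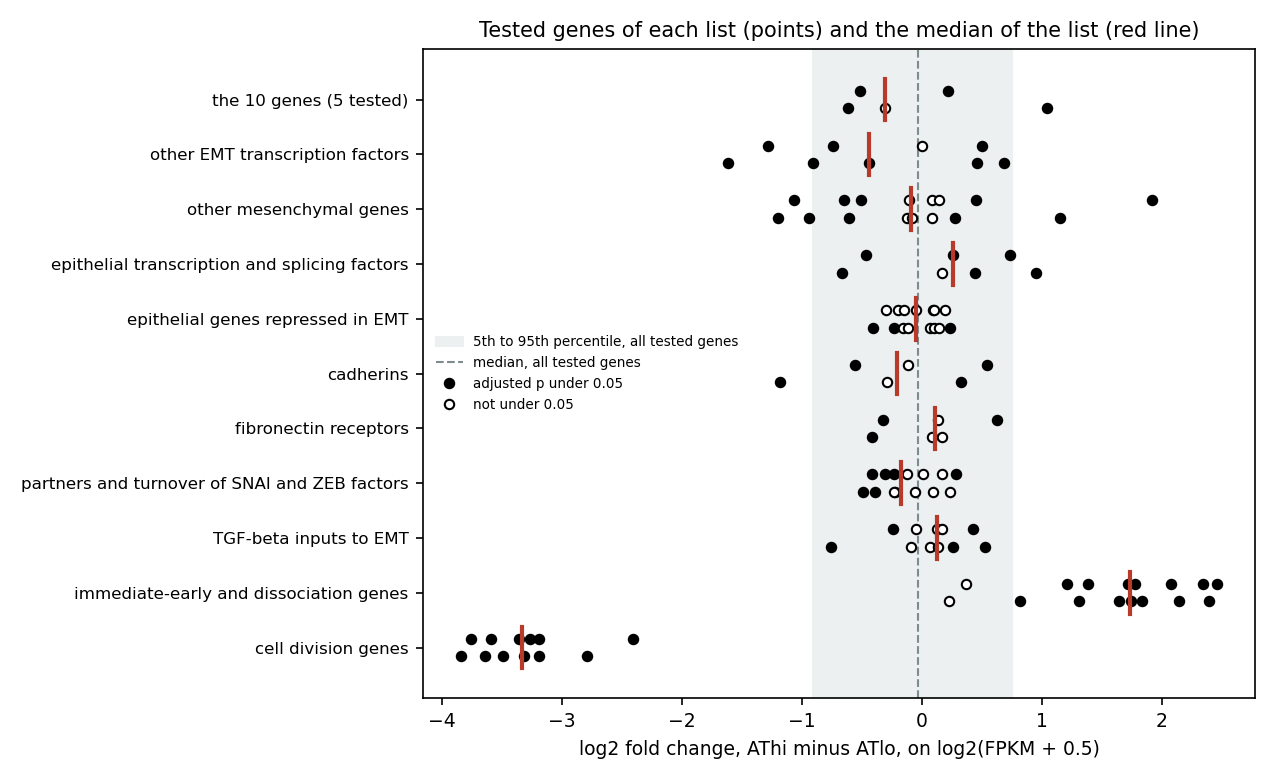
Log2 fold change, AThi minus ATlo, of each tested gene of 11 lists (filled where the limma adjusted p was under 0.05), with the median of each list in red and the 5th to 95th percentile of all tested genes in grey. The 5 tested genes of the 10 spread over both sides of 0, as do the mesenchymal and epithelial lists, while the cell division list lies below -2 and the immediate-early list above 0.

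Of 10 further cadherin genes, 6 passed the filter. Of these, 2 rose, 2 fell and 2 were not called, where 22.2% of all tested genes rose and 29.4% fell. Cdh17, a cadherin of intestinal-type epithelium, was at 92.4 and 60.9 FPKM in AThi against 171, 169 and 170 FPKM in ATlo, with a log2 fold change of -1.18 ± 0.16 (SE). Cdh3, the P-cadherin gene, changed by -0.56 ± 0.07 (SE), close to Cdh2. Cdh6 and Cdh13 rose by 0.55 ± 0.15 and 0.33 ± 0.11 (SE). The call of Cdh6 was lost without AThi replicate 1, ATlo replicate 1 or ATlo replicate 3 (adjusted p 0.143, 0.0577 and 0.0507). That of Cdh13 was lost without AThi replicate 1 or 2 and without ATlo replicate 2 or 3 (adjusted p 0.0983 to 0.210).

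**Figure D5:**
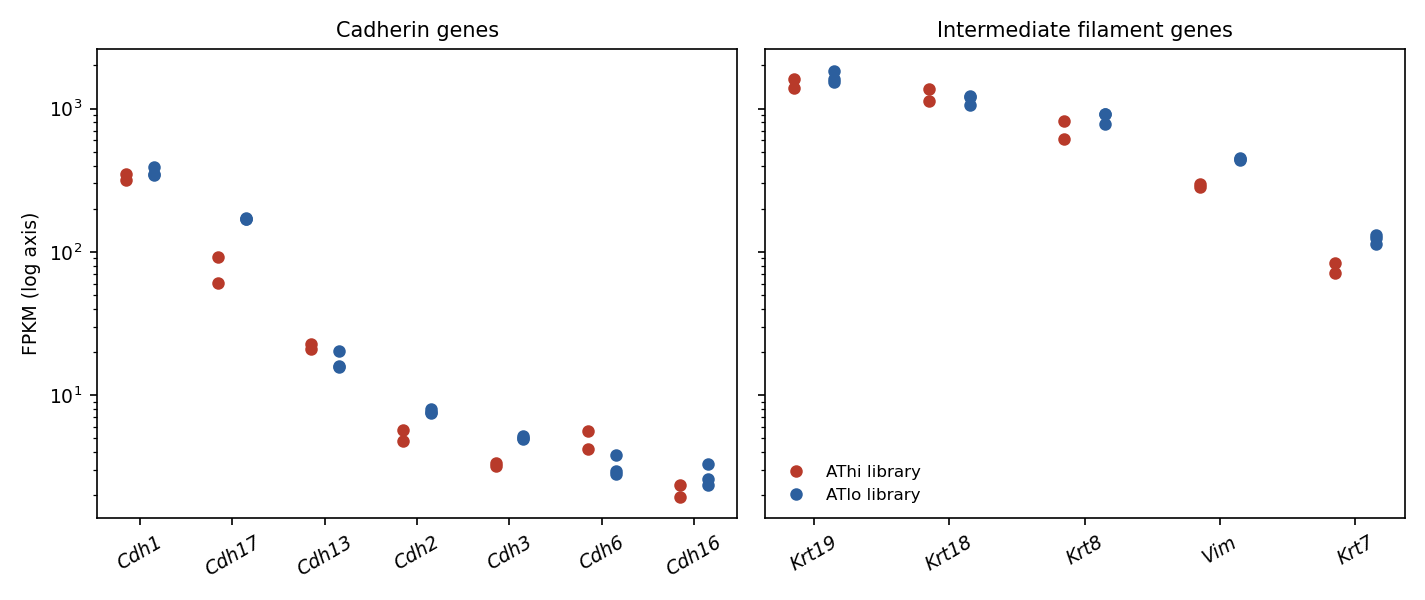
FPKM on a log axis of the cadherin genes past the filter (left) and of Vim beside 4 keratin genes (right), with 1 point per library, AThi in red and ATlo in blue. Cdh1 lies at 316 to 392 FPKM over all libraries and Cdh2 at 4.80 to 8.05 FPKM, and Vim lies between Krt8 and Krt7.

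Of 9 genes for fibronectin receptors, 6 passed the filter, of which 1 rose, 2 fell and 3 were not called, close to the 22.2% higher and 29.4% lower of all tested genes. The syndecan gene Sdc4, a co-receptor, was at 151 and 156 FPKM in AThi against 97.1, 97.4 and 102 FPKM in ATlo, a log2 fold change of 0.63 ± 0.06 (SE). Itgb1, the shared beta subunit of the main fibronectin integrins, was the most abundant and changed by -0.32 ± 0.07 (SE). Itgb3 changed by -0.41 ± 0.14 (SE), a call lost without AThi replicate 2 (adjusted p 0.233) and without ATlo replicate 1, 2 or 3 (adjusted p 0.0990, 0.0546 and 0.0533).

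All 14 genes for partners and turnover of SNAI and ZEB proteins passed the filter. Of these, 1 rose, 6 fell and 7 were not called, against 22.2% higher and 29.4% lower of all tested genes. Without AThi replicate 2 the count that fell was 3, with the calls of Ctbp1, Kdm1a and Fbxl14 lost, and with upper-quartile scaling 3 rose. The deacetylase genes Hdac1 and Hdac2, which serve as corepressors, changed by -0.49 ± 0.07 and -0.41 ± 0.08 (SE). Gsk3b, whose kinase marks SNAIL for degradation, was the 1 that rose, by 0.29 ± 0.06 (SE), and is named after its values were seen. Of 13 genes of TGF-beta signalling, a main inducer of EMT, 11 passed the filter. Of these, 3 rose, 2 fell and 6 were not called, where 22.2% of all tested genes rose and 29.4% fell. With upper-quartile scaling 5 rose, and the count that fell was 1 with that scaling, without either AThi library and without ATlo replicate 1 or 2. The ligand gene Tgfb1 was at 10.3 and 9.14 FPKM in AThi against 17.6, 16.7 and 16.1 FPKM in ATlo, a log2 fold change of -0.76 ± 0.08 (SE). The feedback inhibitor genes Skil, Smad7 and Smurf2 rose by 0.53, 0.43 and 0.26, and each call was lost without AThi replicate 2 (adjusted p 0.127, 0.119 and 0.103). That of Smad7 was also lost without ATlo replicate 1 (adjusted p 0.0623).

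The genes whose pattern over the 5 libraries lay closest to Vim, by the mean absolute difference of centred log2 values among 7684 genes, were Slc25a4, Snrpd2 and Cers2. Their differences were 0.0112, 0.0145 and 0.0153 on the log2 scale. Slc25a4, a mitochondrial ADP/ATP carrier gene, was at 184 and 195 FPKM in AThi against 286, 288 and 282 FPKM in ATlo.

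The 10 genes lie on GRCm38 chromosomes 1 (Fn1 and Prrx1), 2 (Vim, Zeb2 and Snai1), 12 (Twist1), 15 (Grhl2), 16 (Snai2) and 18 (Zeb1 and Cdh2). Vim spans 13573927 to 13582826 on the plus strand and Fn1 71585520 to 71653200 on the minus strand. Fn1 shares 292 exonic nucleotides with the antisense gene Apol7d, which was at no more than 0.26 FPKM, and the strand setting of the counting was not given in the sources used here.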

How the data were processed

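Polyadenylated RNA of 5 libraries was made into libraries with the TruSeq Stranded mRNA kit, as the labels' protocols state. The authors deposited FPKM values, 1 column per library, rounded to 2 decimals. Per the submitters' processing notes, the tools were STAR, featureCounts, bcl2fastq and DESeq2, with GRCm38 and mm10 as builds, in no stated order. The annotation, the strand setting and the formula were not given in the sources used here. The series calls its samples biological replicates. Separate cultures are not named in the labels. The p-values reflect only how far these libraries vary, which may be technical.

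From these values, log2(FPKM + 0.5) was fitted with limma 3.58.1 (R 4.3.3) for genes whose mean reached 1 FPKM. Group was the only term, eBayes used a trend, and tests were two-sided. The script was tested on simulated data with independent genes, of which far fewer changed than were called here. That test checks the code and not the calls. Residual degrees of freedom were 3 and the prior 3.89. The pseudocount understates changes of low genes. Group comparisons of shares used exact permutation tests in SciPy 1.17.1. Depth was read from single-exon genes of up to 200 nucleotides, whose values gave whole reads at a tolerance of 0.1 in 100.0% of values under 20 reads. Implied reads of Snai1, rounded to whole reads, rest on GENCODE M21 exon lengths. Intervals and floors cover counting error only.

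All 10 genes were named. From each list, up to 4 called genes with the largest change and up to 3 with the highest mean could be named, and 1 gene so chosen is not reported here. The genes and lists were chosen with earlier results of these data known. Alternatives were other pseudocounts (0.1 and 1), filters, scalings, moderation, a replicate block and leaving out each library.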

Additional observations from a re-analysis of the deposited data

How the results depend on the processing

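Over 14 alternative fits, Vim, Cdh2, Fn1 and Zeb1 kept their direction. Vim and Cdh2 kept their call throughout, and Snai2 stayed uncalled. Zeb1 missed the threshold with no filter on low values (log2 fold change 0.22, adjusted p 0.0782), with a minimum mean of 0.2 FPKM (0.22, adjusted p 0.0537) and with the replicate block (0.21, adjusted p 0.0883). Fn1 missed it with no filter (1.04, adjusted p 0.0801) and with robust moderation (1.04, adjusted p 0.0683). The cause was not tested. Without 1 library each, the log2 fold change ranged from 0.15 to 0.29 for Zeb1, from 0.77 to 1.29 for Fn1, from -0.65 to -0.58 for Vim, from -0.64 to -0.40 for Cdh2 and from -0.58 to -0.03 for Snai2. Genes called over the table numbered 4309 to 5718 without 1 library, 5909 with the replicate block and 5884 with all libraries. Fits without an AThi library assume that the lone library varies like the ATlo group. In their titles, AThi and ATlo replicates 1 carry the same numeric code, as do both replicates 2, and the labels do not say whether it marks a date or a batch. Deviations of these libraries from their group means correlated at 0.20 and 0.297. The deviations of the 2 AThi libraries mirror each other, so these values are not independent, and 2 pairs do not establish a pairing. With the replicate block the adjusted p of Fn1 was 5.6e-06. That fit had 1 residual degree of freedom, against 3 in the main fit. ATlo replicate 3 shares its number with no AThi library, so it adds nothing to the group difference there. The log2 fold change of Fn1 in that fit equals the one without ATlo replicate 3. The small p rests on 2 same-number pairs with similar Fn1 differences, so it does not strengthen the Fn1 call. Of 308 recomputed counts of calls in the lists, 252 were within 1.5 times the value reported and 56 were not. The 252 include counts of cell division and immediate-early genes that stayed at 0, or at all 12 genes, in every setting. All 56 belonged to the other lists. Snai1, Zeb2 and Prrx1 are limited by depth or by rounding to 2 decimals. Twist1 and Grhl2 were below the filter of the main fit, and the pseudocount understates changes at their levels.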
